A study of Mus musculus with 4 samples.

Results

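Fatty acid and triglyceride synthesis was followed through 10 enzyme genes, Acly, Acaca, Fasn, Scd1, Scd2, Gpam, Agpat2, Lpin1, Dgat1 and Dgat2, in mouse 3T3-L1 preadipocytes with and without a knockdown of Lamp2a. The genes were chosen by name, and every array probe whose transcript belongs to one of them was kept, which gave 15 probes of 55681 and 10 genes of the 20952 measured. The 3T3-L1 line is an established clonal fibroblast line that accumulates fat after a hormone cocktail. Lamp2a, a splice variant of Lamp2 in the lysosome's membrane, is the receptor of chaperone-mediated autophagy. The study compared control cells and cells knocked down for Lamp2a, which the labels write as LAMP2A-, at confluence (day 0) and at day 2 of adipocyte differentiation. Each of the 4 groups was 1 array. All cultures were grown with 10% serum and 1% antibiotics. From day 0 the medium also held 160 nM insulin, 250 nM dexamethasone and 0.5 mM isobutylmethylxanthine, so both day 2 cultures had received the cocktail and no uninduced day 2 culture is among the 4. How the knockdown was made, what the control cells carried and whether the cells were a clone or a pool are not given in the sources used here.

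Cytosolic fat synthesis starts from citrate that leaves the mitochondrion. Acly splits citrate to acetyl-CoA, Acaca carboxylates acetyl-CoA to malonyl-CoA, Fasn assembles these units into palmitate, and the stearoyl-CoA desaturases Scd1 and Scd2 place the first double bond in the product. Triglyceride is then built on glycerol-3-phosphate by Gpam, Agpat2, Lpin1 and finally Dgat1 or Dgat2. Insulin acting through Srebf1, glucose acting through Mlxipl, and the adipocyte factors Pparg and Cebpa are the textbook regulators of these genes during adipogenesis, in which most of the enzymes become abundant as fat cells mature.

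Values are Agilent spot signals divided by the 75th percentile of their array, called scaled signals here. That percentile was a processed signal of 1580 and 1652 at day 0 (control, then knockdown) and of 1228 and 1096 at day 2. Between 67.4% and 88.6% of the 59305 non-control spots of an array were well above background, with the lowest share on the control day 0 array and no spot saturated. Slide 1 carried only the control day 0 array and slide 2 the rest. A slide effect and a group effect cannot be told apart wherever that array enters: in knockdown against control at day 0, in day 2 against day 0 in control cells, and in the difference of the knockdown ratios. The remaining comparisons stayed within slide 2. The Lamp2 probe A_55_P2102126 was lower after the knockdown by 4.13-fold at day 0 and 3.52-fold at day 2, and the other Lamp2 probe, A_52_P483280, by 1.28-fold and 1.09-fold. All 8 preadipocyte and fibroblast markers (Pdgfra, Pdgfrb, Thy1, Col1a1, Col1a2, Dlk1, Vim and Ly6a) were well above background on every array, with summed scaled signals of 681 to 828. A single array per group leaves no spread between replicates and no test. The only error measured is the spread between spots of an array, from 399 probes printed 10 times on each array. It is given as the spot SD of a log2 ratio at the brightness of the gene, and it leaves out any difference between cultures.

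**Figure D1:**
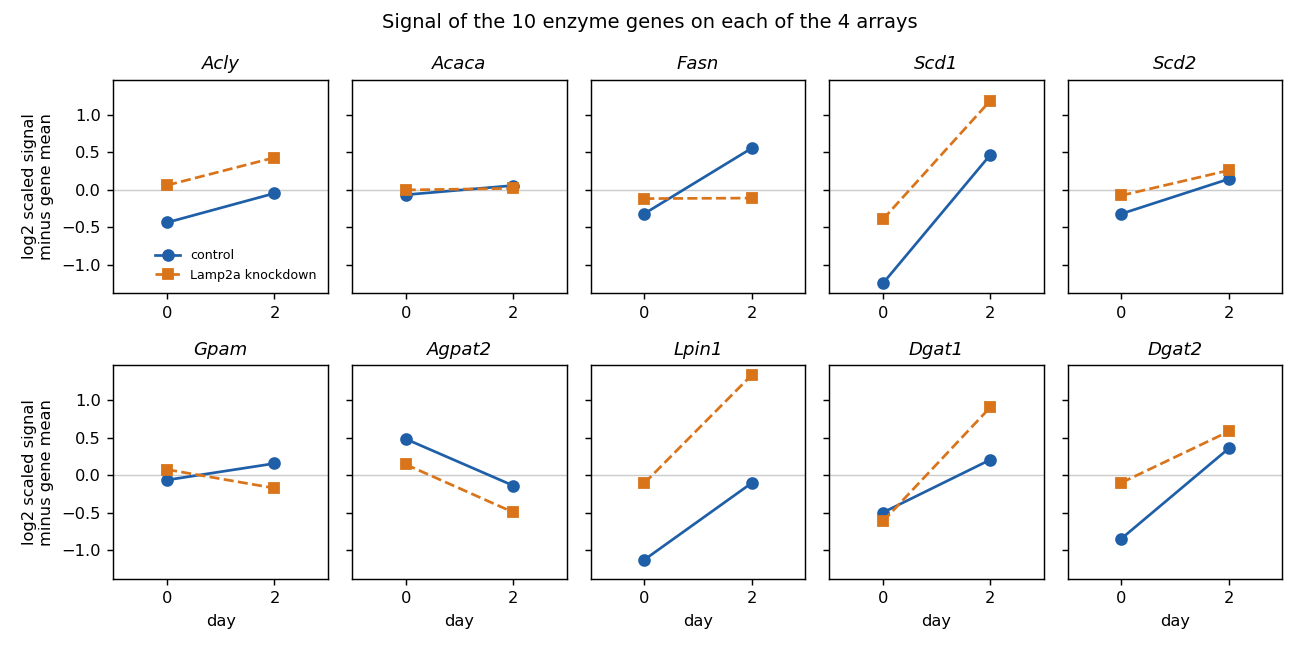
Log2 scaled signal of each of the 10 enzyme genes, minus the gene's own mean over the 4 arrays, against day of differentiation; blue circles are control cells, orange squares Lamp2a knockdown cells, and each point is 1 array. Scd1 and Lpin1 spanned the widest ranges, 5.44-fold and 5.52-fold, Agpat2 was lower at day 2 in both kinds of cell, and Acaca spanned 1.09-fold.

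A ratio of 2-fold or more was taken as the size of a call. At day 2, 1 of the 10 enzyme genes, Lpin1, was 2-fold or more higher in knockdown than in control cells, where 2.89% of 18557 compared genes were, and none was 2-fold lower, where 4.13% of genes were. From day 0 to day 2 in knockdown cells, Scd1, Dgat1 and Lpin1 were 2-fold or more higher, beside 5.00% of 19194 genes, and none was 2-fold lower, beside 9.09% of genes. In the same interval in control cells, Scd1, Dgat2 and Lpin1 were 2-fold or more higher, beside 20.2% of 18653 genes, and none was lower, beside 8.08%. At day 0, Lpin1 was higher in knockdown cells, beside 18.5% of 19266 genes, and none was lower, beside 4.17%. Members' counts in the comparisons with the control day 0 array stand on a large background. There, the share depended on brightness. From the dimmest to the brightest of 5 classes, 8.3%, 53.6%, 22.5%, 2.7% and 1.1% of genes were 2-fold higher in knockdown cells at day 0. Over time in control cells the shares were 8.7%, 53.8%, 23.2%, 4.5% and 4.4% in the same order. Scd1 and Dgat2 belonged to class 4, where the share was 4.5%. Lpin1 belonged to class 3, with 23.2%, and 22.5% at day 0. The split of all called genes in those comparisons also turned with the scaling. Of the genes called at day 0, 81.6% were higher in knockdown cells, but 46.0% after quantile normalization, 36.5% after cyclic loess and 18.0% after scaling to the array median. For day 2 against day 0 in control cells the share was 71.4%, and 37.3%, 30.5% and 18.8% in the same order. Among the 15462 genes well above background on all 4 arrays, scaling to the median moved the median gene by -0.80 log2 at day 0 and by -0.78 over time in control cells.

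The median log2 ratio of the enzyme genes was 0.17 for knockdown against control at day 2, beside -0.01 over all genes. Of the enzyme genes 6 were above 0 and 4 below, where 48.2% of all genes were above 0. The median was 0.35 for day 2 against day 0 in knockdown cells, beside 0.00 over all genes, with 8 above 0, where 47.3% of all genes were. In the comparisons with the control day 0 array the medians were 0.58 over time in control cells, beside 0.19 over all genes, and 0.22 for the knockdown at day 0, beside 0.12. At day 2 the 10 knockdown log2 ratios spread from -0.66 for Fasn to 1.44 for Lpin1. The enzymes therefore did not lie on one side of 0 at day 2.

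**Figure D2:**
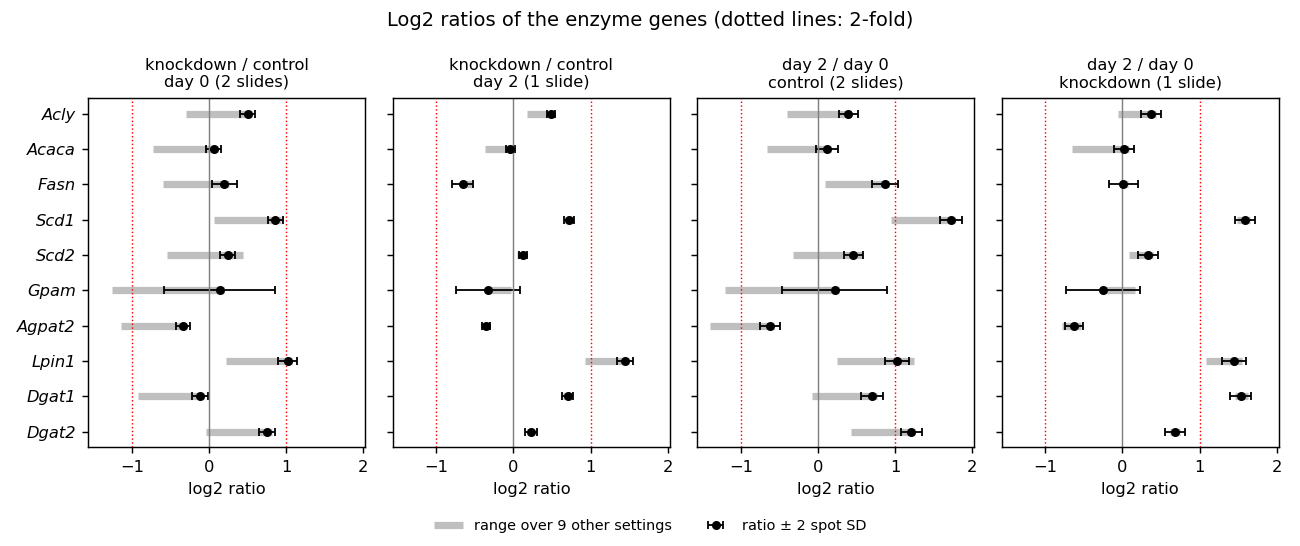
Log2 ratios of the 10 enzyme genes in the 4 comparisons; points are the ratios, black bars are 2 spot SD to each side and cover spots within an array only, grey bars are the range over 9 other processing settings, and red dotted lines mark 2-fold. Grey bars are short within slide 2 (knockdown over control at day 2, and time in knockdown cells) for most genes and long where the control day 0 array enters; Scd1, Dgat1 and Lpin1 lie past 2-fold over time in knockdown cells under every setting.

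Acly, the ATP citrate lyase that supplies acetyl-CoA, had scaled signals of 18.7 in control and 26.4 in knockdown cells at day 0, and of 24.5 and 34.1 at day 2. By this probe the signal was higher in knockdown cells on both days, and higher at day 2 in both kinds of cell. The knockdown log2 ratio was 0.50 at day 0 (spot SD 0.048) and 0.48 at day 2 (spot SD 0.026), or 1.41-fold and 1.39-fold, short of the 2-fold size. At day 0 it turned to -0.30 after scaling to the median. A second, much dimmer Acly probe, A_55_P2082914, gave 1.24-fold higher at day 0 and 1.11-fold lower at day 2, so the probes differed in direction at day 2. They differed over time too: the dimmer probe gave 1.02-fold lower in control and 1.40-fold lower in knockdown cells, against 1.31-fold and 1.29-fold higher for the brighter. The time log2 ratio was -0.06 in knockdown cells with the median over probes, and -0.40 in control cells with median scaling.

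Acaca, acetyl-CoA carboxylase 1, which makes malonyl-CoA, varied little by its brightest probe. Scaled signals were 6.39 in control and 6.68 in knockdown cells at day 0, and 6.96 and 6.78 at day 2. In each of the 4 comparisons its log2 ratio, from -0.04 to 0.12, was under 2 spot SD. The other 2 Acaca probes were far dimmer, with scaled signals of 0.0423 to 0.0753 over the arrays, and both were lower in knockdown cells at day 2, by 1.34-fold and 1.29-fold. Over time in knockdown cells these probes were 1.65-fold and 1.48-fold lower (log2 ratios -0.72 and -0.56). With the median over probes the Acaca time ratio in knockdown cells was -0.65, and with median scaling the day 0 knockdown ratio and the control time ratio were -0.73 and -0.66.

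Fasn, fatty acid synthase, was the enzyme gene with the lowest knockdown ratio at day 2. Its scaled signal was 0.347 in control cells at day 0, 0.399 in knockdown cells at day 0, 0.636 in control cells at day 2 and 0.401 in knockdown cells at day 2. Control cells at day 2 stood above the other arrays, and both knockdown arrays lay close together. At day 2 Fasn was 1.58-fold lower in knockdown cells (log2 ratio -0.66, spot SD 0.067, 50 repeat probes), and 7.8% of all compared genes lay at or beyond that ratio. Over the 9 other settings this ratio ran from -0.69 to -0.53. Day 2 was 1.83-fold above day 0 in control cells (log2 ratio 0.87) and 1.01-fold in knockdown cells (0.01). With median scaling the control ratio was 0.09. In bulk RNA, fewer cells of a kind and less RNA per cell cannot be told apart, here and in every ratio that follows.

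At day 2 Fasn had the lowest and Lpin1 the highest knockdown ratio. Over time, Agpat2 gave the only lower values past 2 spot SD. For that reason alone the regions upstream of these genes are shown. They are the 250 bases before the RefSeq start on GRCm38.p6, 5′ to 3′ on the gene's strand, with matches to the searched motifs in capitals. The motifs, looked for on both strands with overlapping matches counted, were 5 in number. The CCAAT box was searched for by the letters in its name and the GC box as GGGCGG, a site of the factor Sp1. The palindromic E-box was searched for as CACGTG, the sterol regulatory element of SREBP factors was written TCACNCCAC, and the sequence for C/EBP factors was written TTGCNNAA. Fasn lies at chr11:120824548-120824797, Lpin1 at chr12:16610967-16611216 and Agpat2 at chr2:26604418-26604667, all on the minus strand.
Fasn: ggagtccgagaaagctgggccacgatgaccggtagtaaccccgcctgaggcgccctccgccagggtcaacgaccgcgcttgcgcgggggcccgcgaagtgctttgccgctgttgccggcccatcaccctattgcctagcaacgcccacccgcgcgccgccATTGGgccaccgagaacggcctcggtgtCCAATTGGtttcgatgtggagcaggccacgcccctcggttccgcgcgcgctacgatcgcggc
Lpin1: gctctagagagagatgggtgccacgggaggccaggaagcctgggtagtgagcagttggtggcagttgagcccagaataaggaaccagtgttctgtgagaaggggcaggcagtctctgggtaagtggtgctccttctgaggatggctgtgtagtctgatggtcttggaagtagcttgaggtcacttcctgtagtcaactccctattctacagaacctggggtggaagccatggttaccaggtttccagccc
Agpat2: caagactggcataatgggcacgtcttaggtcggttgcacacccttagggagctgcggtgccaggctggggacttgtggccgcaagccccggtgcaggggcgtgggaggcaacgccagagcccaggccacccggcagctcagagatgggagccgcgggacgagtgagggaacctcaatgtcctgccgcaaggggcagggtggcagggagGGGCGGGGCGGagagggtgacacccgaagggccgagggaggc
The Fasn window held 3 matches to the CCAAT box, beginning 90, 62 and 59 bases before the start, of which the last pair overlap. Agpat2 held 2 overlapping GC boxes, 42 and 37 bases before the start, and the Lpin1 window held none of the 5 motifs. Of 32851 promoters of the same length, 33.8% held a CCAAT box, 32.7% a GC box, 6.0% the E-box, 1.1% the sterol element and 9.6% the C/EBP sequence. In all, 6 of the enzyme genes matched the promoter table. The Acly window held 4 GC boxes, those of Gpam 1 CCAAT box or 1 GC box, and that of Acaca none of the motifs. A match is a stretch of letters and not a measured binding site, and any link of the motifs to the ratios was not tested.

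Scd1, the desaturase induced in maturing adipocytes, was higher at day 2 in both kinds of cell and higher in knockdown cells on both days. Its scaled signals were 1.99 in control and 3.60 in knockdown cells at day 0, then 6.54 and 10.8 at day 2. Each step, by day or by knockdown, went the same way. The knockdown log2 ratio at day 0 was 0.86 (spot SD 0.049), but 0.06 after median scaling. From day 0 to day 2 Scd1 was 3.00-fold higher in knockdown cells (log2 ratio 1.59, spot SD 0.063), and 1.9% of all genes lay at or beyond that. The ratio in control cells was 3.29-fold (log2 ratio 1.72), and 0.94 after median scaling, which ends the call. Knockdown cells were 1.65-fold above control cells at day 2 (log2 ratio 0.72, spot SD 0.033), with 5.4% of genes at or beyond. Over the other settings that ratio stayed between 0.67 and 0.77.

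Scd2, the desaturase already expressed before differentiation, had scaled signals of 48.7 in control and 57.7 in knockdown cells at day 0, and of 67.2 and 72.8 at day 2. The order of the arrays was that of Scd1, with smaller steps, but it did not hold with median scaling, where the log2 ratio was -0.55 for the knockdown at day 0 and -0.32 over time in control cells. Knockdown cells were 1.08-fold above control cells at day 2 (log2 ratio 0.12, spot SD 0.025), and day 2 was 1.26-fold above day 0 in knockdown cells. Scd1 and Scd2 are close paralogs, and whether either probe also binds the other transcript was not tested.

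Gpam, the mitochondrial acyltransferase that starts glycerolipid synthesis, gave too little signal to rank the arrays. Its scaled signals were 0.0454 in control and 0.0500 in knockdown cells at day 0, then 0.0529 and 0.0421 at day 2, all marked well above background. None of its ratios exceeded 2 spot SD, which at this brightness was 0.21 to 0.36 for 1 spot SD over the 4 comparisons. With cyclic loess its log2 ratio was -1.26 for the knockdown at day 0 and -1.20 over time in control cells, both past 2-fold lower. The main values there were 0.14 and 0.22.

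Agpat2, the acyltransferase that adds the second fatty acid and whose loss causes lipodystrophy, had the opposite course to Scd1. It gave scaled signals of 15.7 in control and 12.4 in knockdown cells at day 0, then 10.2 and 7.97 at day 2. Both arrays of day 2 were below both of day 0, and knockdown cells were below control cells on each day. Within slide 2, it was 1.55-fold lower at day 2 than at day 0 in knockdown cells (log2 ratio -0.63, spot SD 0.060) and at day 2 it was 1.28-fold below control cells in knockdown cells (-0.36, spot SD 0.027). A second Agpat2 probe, A_55_P2125947, gave 1.37-fold and 1.18-fold lower in these comparisons. None of these passed 2-fold, and the direction held in all 9 other settings. Of these, the filter on genes well above background on all arrays could not change it.

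Lpin1, a phosphatidic acid phosphatase that also acts as a transcriptional coactivator, had the highest knockdown ratio of the 10 genes at day 2, and at day 0 in the scaling used here. At day 0 Scd1 was above it after quantile normalization (0.93 against 0.78) and cyclic loess (0.89 against 0.83). The scaled signal was 0.349 in control cells and 0.709 in knockdown cells at day 0, and 0.710 and 1.93 at day 2. Knockdown cells at day 0 thus had the signal that control cells had at day 2. At day 2 Lpin1 was 2.72-fold higher in knockdown cells (log2 ratio 1.44, spot SD 0.052), and 1.3% of compared genes lay at or beyond this. Over time in knockdown cells it was also 2.72-fold higher (1.44, spot SD 0.078), with 2.4% of genes at or beyond. Against the control day 0 array, the knockdown and the time ratio were each 2.03-fold (log2 1.02). Both of these were past 2-fold by a narrow margin. They fell short of it under normexp background correction, quantile normalization, cyclic loess and median scaling, with lowest values of 0.22 and 0.24.

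The other Lpin1 probe, A_55_P2083474, was dim, and on the control day 0 array it was not well above background. Its scaled signals were 0.0341 in knockdown cells at day 0, 0.0421 in control cells at day 2 and 0.0557 in knockdown cells at day 2. At day 2 it was 1.32-fold higher with the knockdown, and over time in knockdown cells 1.63-fold higher, the direction of the brighter probe at a smaller size. With the median of both probes in place of the brighter, the day 2 knockdown log2 ratio was 0.92, under the 2-fold size, and the ratio over time in knockdown cells was 1.08.

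**Figure D3:**
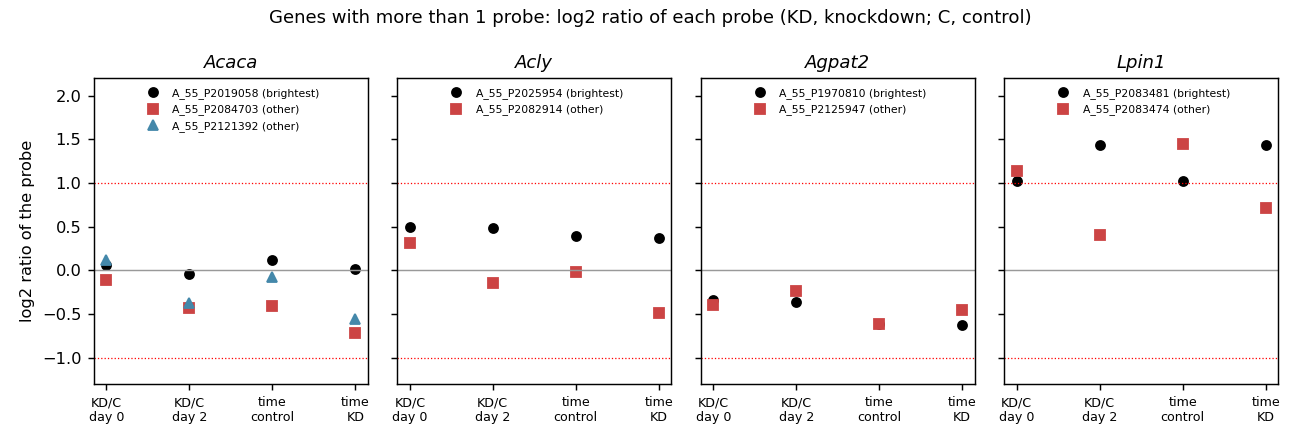
Log2 ratio of every probe of the 4 enzyme genes that have more than 1 probe, in the 4 comparisons (KD/C, knockdown over control; time, day 2 over day 0); black circles are the brightest probe, which stands for the gene, coloured marks the others, and red dotted lines mark 2-fold. The 2 Agpat2 probes lie on one side of 0 in each comparison, the 2 Lpin1 probes lie above 0 but differ at day 2 (1.44 and 0.40), and the other Lpin1 probe was not well above background in control cells at day 0, an array that enters the day 0 and the control time ratio.

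Dgat1, an acyl-CoA diacylglycerol acyltransferase of the last step, had its highest signal in knockdown cells at day 2. The scaled signal was 1.65 in control and 1.52 in knockdown cells at day 0, then 2.69 and 4.37 at day 2. In the scaling used here the arrays of day 0 were close to each other, and control cells at day 2 lay between them and knockdown cells at day 2. With median scaling the knockdown log2 ratio of Dgat1 at day 0 was -0.92. Over time in knockdown cells Dgat1 was 2.88-fold higher (log2 ratio 1.53, spot SD 0.066), with 2.1% of genes at or beyond. At day 2 it was 1.62-fold higher in knockdown than in control cells (0.70, spot SD 0.036; 5.7% of genes at or beyond), short of 2-fold, and the other settings gave 0.64 to 0.75. The ratio over time in control cells was 1.63-fold higher (0.70), which turned to -0.08 after median scaling.

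Dgat2, the second and unrelated enzyme of that step, which belongs to a different protein family, had scaled signals of 1.15 in control and 1.93 in knockdown cells at day 0, and of 2.65 and 3.1 at day 2. Its order of arrays was that of Scd1 and Lpin1, with the lowest signal in control cells at day 0, except that the day 0 knockdown log2 ratio was -0.04 with median scaling. In control cells day 2 was 2.32-fold above day 0 (log2 ratio 1.21), a call that ends after median scaling (0.43). In knockdown cells it was 1.61-fold above (0.68, spot SD 0.067). At day 2 knockdown cells were 1.17-fold above control cells (0.23, spot SD 0.038).

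The knockdown ratio can be set against itself between the days, as the log2 ratio at day 2 minus that at day 0. None of the 10 enzyme genes passed 2-fold in this difference, beside 2.85% of 15462 genes higher and 17.0% lower. Of the genes called, 14.3% were higher, but 44.7% after quantile normalization, 56.9% after cyclic loess and 88.0% after median scaling, which moved the median gene by 0.85. Fasn had the lowest difference, -0.87, and Dgat1 the highest, 0.82. The median of the 10 was -0.12, beside -0.04 over all genes. The 4 ratios share arrays and are not independent views of a gene.

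Among themselves the genes fell into unlike courses. With each profile centred on its own mean over the 4 arrays, the closest members by Euclidean distance were Acaca and Gpam (0.23 log2), whose ranges were small, then Acly and Scd2 (0.31). Scd1 was closest to Lpin1 (0.67), and Agpat2 was the farthest from Scd1 (2.55). By the brightest probe of each, Acly, Scd1, Scd2, Dgat2, Lpin1 and Dgat1 were highest in knockdown cells at day 2. How many of all genes were highest on that array was not counted. The dimmer Acly probe was lowest there, at a scaled signal of 0.101 against 0.112 to 0.142 on the other arrays. Fasn, Acaca and Gpam were highest in control cells at day 2, though the steps of Acaca and Gpam were within 2 spot SD. The median profile of the members was -0.38, -0.09, 0.15 and 0.34 log2 in control then knockdown cells at day 0, and control then knockdown cells at day 2. The genes nearest to it were sought among 7731 brighter genes, a count taken before the members were left out. Outside the list, the nearest over the 4 arrays were Hnrnph1 (distance 0.025), Fam136a (0.029), Hdac3 (0.038), Nr2f1 (0.041) and Rpl23a (0.045). The median joins unlike courses, so nearness to it is not likeness to any 1 of the enzyme genes.

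Other enzymes of the same steps were read from a list of 28 isoenzymes, elongases and desaturases, of which 27 were compared in each comparison. At day 2, 4 were 2-fold or more higher and 2 lower in knockdown cells, beside 2.89% and 4.13% of all genes, with a median log2 ratio of 0.03. The higher ones named are Elovl7 (5.12-fold), the very-long-chain elongase Elovl4 (3.98-fold) and the Lpin1 paralog Lpin3 (2.64-fold), each with scaled signals under 1. Lower were Plpp1, a lipid phosphate phosphatase of the plasma membrane (3.43-fold, scaled signals 41.9 in control and 12.2 in knockdown cells), and Gpat3, the microsomal counterpart of Gpam that is induced in adipogenesis (3.1-fold, 1.14 and 0.368). The same direction was seen at day 0 for Elovl4 (3.67-fold higher) and Plpp1 (2.24-fold lower), but not for Gpat3, whose scaled signals were then 0.905 in control and 1.30 in knockdown cells.

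**Figure D4:**
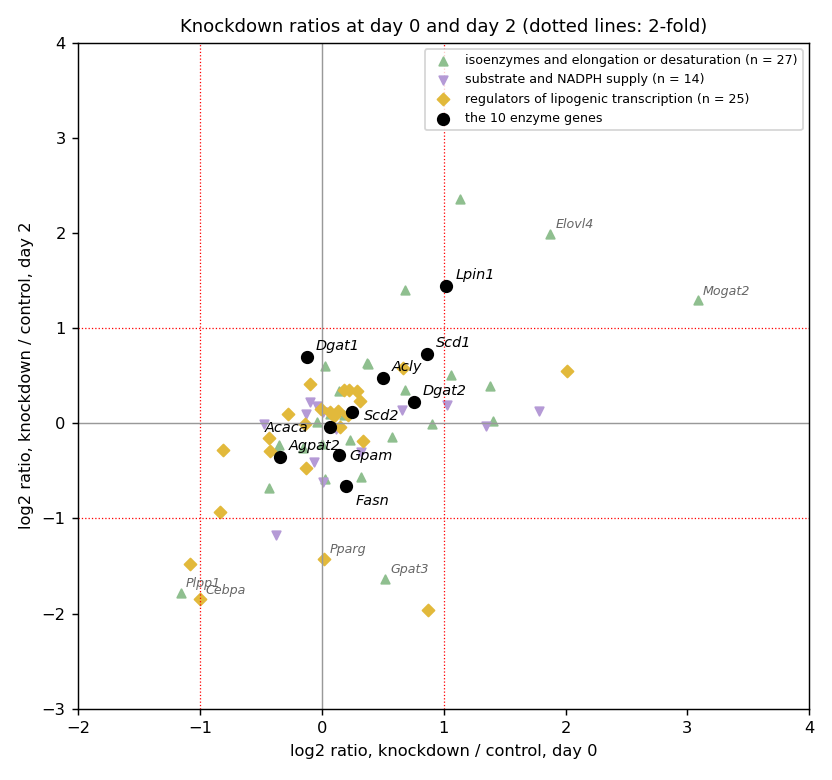
Log2 ratio of knockdown over control at day 0 (horizontal) and at day 2 (vertical) for the 10 enzyme genes (black) and 3 related lists (coloured), 1 array per group; a gene not well above background on 1 array of a pair is drawn at its bound, and red dotted lines mark 2-fold. Lpin1 alone of the 10 lies past 2-fold at day 2, Fasn lies lowest of the 10, and Pparg, Cebpa, Plpp1 and Gpat3 lie below -1 at day 2.

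At day 0, 6 of these isoenzymes were 2-fold higher and 1 lower in knockdown cells, a share near the 18.5% of all genes that were higher there, with the monoacylglycerol acyltransferase Mogat2 (8.48-fold) and Gpat2 (2.65-fold) among the higher. Over time in control cells 3 were higher and 3 lower, beside 20.2% and 8.08% of all genes. The higher were the acyltransferases Agpat5 (3.03-fold), Gpat2 (2.30-fold) and Agpat4 (2.17-fold), and the lower Mogat2 (3.71-fold), Fads3 (2.25-fold) and Elovl4 (2.01-fold). Agpat5 and Agpat4 were thus higher at day 2 in control cells while Agpat2 was 1.54-fold lower. In knockdown cells only Elovl5 was 2-fold higher (2.07-fold) and 4 were lower, beside 5.00% and 9.09% of all genes. Among the lower were Mogat2 (12.8-fold), Gpat3 (3.53-fold) and the delta-6 desaturase Fads2 (2.81-fold). The median was -0.17 there and 0.00 in control cells. In at least 1 other setting, the ratios of Agpat5 (0.82 log2), Gpat2 (0.42), Agpat4 (0.33) and Elovl4 (-0.68) over time in control cells, of Elovl5 in knockdown cells (0.91) and of Gpat2 (0.61) and Plpp1 (-0.90) at day 0 were under 2-fold.

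Genes that supply carbon, glycerol and NADPH to these enzymes were compared for 14 of a list of 15. Pcx, the pyruvate carboxylase that refills oxaloacetate, was 8.28-fold higher at day 2 in control cells and 6.55-fold in knockdown cells, with scaled signals of 5.47 and 5.24 at day 0 and 45.3 and 34.3 at day 2. Idh1, the cytosolic isocitrate dehydrogenase that makes NADPH, was 3.21-fold higher at day 2 in control cells. It was the 1 gene of the list past 2-fold for the knockdown at day 2, lower by 2.25-fold, beside 4.13% of all genes lower. Me1, the NADPH-forming malic enzyme, ran the other way over time. In control and knockdown cells the scaled signal was 13.4 and 12.2 at day 0 and 5.93 and 6.35 at day 2, or 2.26-fold lower in control and 1.93-fold lower in knockdown cells. Over time 4 of the 14 were higher and 1 lower in control cells (median 0.51), beside 20.2% and 8.08% of all genes. In knockdown cells 1 was higher and 0 lower (median 0.09), beside 5.00% and 9.09%. Aqp7, Slc2a4 and Gk were the 3 higher in knockdown cells at day 0, by 3.44-fold, 2.55-fold and 2.04-fold, a share of the list close to the 18.5% of all genes. Aqp7 was also 3.24-fold higher over time in control cells. In other settings these ratios were under 2-fold, down to 0.99, -0.11 and 0.23 log2 for Aqp7, Slc2a4 and Gk at day 0, and to 0.91 and 0.90 for Aqp7 and Idh1 over time in control cells.

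The regulators of these genes were a list of 25. Srebf1, the sterol regulatory factor that carries the insulin response, was 4.05-fold higher at day 2 in control and 2.81-fold higher in knockdown cells, from scaled signals of 0.102 and 0.129 to 0.413 and 0.363. Set against control cells at day 2, knockdown cells were 1.14-fold lower. Mlxipl, the carbohydrate-response factor, had scaled signals of 1.24 and 1.45 at day 0 and of 1.70 and 2.16 at day 2, a 1.27-fold higher value in knockdown cells at day 2. Pparg, the master regulator of adipogenesis, was 2.50-fold higher at day 2 in control cells, with 1.08-fold lower in knockdown cells, and so 2.68-fold lower in knockdown cells at day 2 (scaled signals 7.91 and 2.95). Cebpa, its partner, stood 3.60-fold lower with the knockdown at day 2 (2.48 and 0.690). At day 0 it was lower by a fold that rounds to 2.00 but falls just short of a call. Its log2 ratio at day 0 ran from -1.80 to -0.94 over the other settings. The control time ratios of Pparg and Cebpa were under 2-fold in other settings, at 0.54 and 0.41 log2. Mid1ip1, which promotes the polymerisation of acetyl-CoA carboxylase, was lower in knockdown cells on both days, by 2.12-fold and 2.79-fold. In the scaling used here the signal of Acaca itself was level by its brightest probe. Its dimmer probes were lower in knockdown cells at day 2, by 1.34-fold and 1.29-fold. Thrsp, the paralog of Mid1ip1, was 3.90-fold lower at day 2 from a dim signal. At day 2, 0 of the 25 were 2-fold higher and 4 lower in knockdown cells, beside 2.89% and 4.13% of all genes, with a median of 0.07. Over time 6 were higher and 2 lower in control cells, where 20.2% of all genes were higher and 8.08% lower. In knockdown cells 2 were higher and 3 lower, beside 5.00% and 9.09% of all genes. Rxra, the partner of Pparg, was 3.05-fold and 2.69-fold higher, Insig1, which retains the SREBP precursor, was 2.42-fold and 2.22-fold lower, and Nr1h3, the liver X receptor alpha, was lower by 2.08-fold in knockdown cells. At day 0, 1 of the 25 was 2-fold higher and 1 lower in knockdown cells, beside 18.5% and 4.17% of all genes. The higher was Prkaa2, a catalytic subunit of the AMP-activated kinase, by 4.03-fold from dim signals. Other settings left Prkaa2 (0.91 log2), Thrsp (-0.71), Rxra in control cells (0.83), and Insig1 (-0.97) and Nr1h3 (-0.77) in knockdown cells under 2-fold.

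Cholesterol synthesis is the other branch driven by sterol regulatory factors. Of 20 genes, 7 were 2-fold lower and 1 higher over time in knockdown cells, beside 9.09% and 5.00% of all genes. Their median log2 ratio was -0.80. In control cells 3 were lower and 1 higher, beside 8.08% and 20.2% of all genes, with a median of -0.45. Fdps, the farnesyl diphosphate synthase, was 3.30-fold lower in knockdown and 2.13-fold lower in control cells, Fdft1 2.06-fold lower in control cells, and Sc5d 2.15-fold and Lss 2.12-fold lower in knockdown cells. Hsd17b7 was the higher one, by 2.32-fold in control and 2.65-fold in knockdown cells. Knockdown against control at day 2 showed 0 genes past 2-fold, beside 2.89% of all genes higher and 4.13% lower, and a median of 0.11. At day 0 only Cyp51 passed 2-fold (2.43-fold higher), beside 18.5% of all genes higher and 4.17% lower, with a median of 0.36. In other settings Cyp51 (0.48 log2), Hsd17b7 in control cells (0.44) and Fdft1 in control cells (-0.47) were under 2-fold.

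Adipocyte markers were a list of 10. In control cells 9 were 2-fold or more higher at day 2, beside 20.2% of all genes, with a median log2 ratio of 2.13. In knockdown cells 3 were, beside 5.00% of all genes, with a median of 0.62. At day 2, 5 of the 10 were 2-fold lower in knockdown cells and 1 higher, beside 4.13% and 2.89% of all genes, with a median of -1.09. Plin1, the perilipin of the lipid droplet (4.16-fold), the lipase Pnpla2 (3.79-fold) and Retn (3.62-fold) were lower, whereas Fabp4, the fatty acid binding protein, was 6.12-fold higher (scaled signals 6.29 and 38.5). Fabp4 was also 5.34-fold higher at day 0, and Cidec 4.69-fold higher from a dim signal. Over time Plin1, Fabp4 and Retn were 13.9-fold, 11.0-fold and 10.6-fold higher in control cells, and Fabp4, Lipe and Cd36 were 12.5-fold, 2.89-fold and 2.46-fold higher in knockdown cells. Cidec at day 0 (0.59 log2) and Cd36 (0.85) were under 2-fold in other settings. The summed scaled signal of the 10 markers was 62.2 in control and 46.1 in knockdown cells at day 0, then 86.9 and 90.2 at day 2, and Lpl alone gave 55.5, 37.5, 61.2 and 46.3 of it. At day 2 in knockdown cells Lpl and Fabp4 made up most of the sum, so it does not show the 5 lower markers. Adipoq, Cfd and Cd36 were not well above background in control cells at day 0. Their part in the ratios of the enzyme genes was not tested.

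Markers of other cell types gave smaller sums than the preadipocyte markers, though not every one was dim. Summed scaled signals were 1.93 to 2.87 for 4 macrophage genes, 2.95 to 3.92 for 4 endothelial genes and 0.0371 to 0.105 for 5 epithelial and hepatocyte genes. Csf1r, the macrophage colony-stimulating factor receptor, made up most of the macrophage sum, at 2.08 in control and 2.65 in knockdown cells at day 0, then 2.47 and 1.74 at day 2. Kdr, a receptor of vascular endothelial growth factor, made up most of the endothelial sum, at 2.64, 2.66, 3.53 and 3.47 in the same order. Lyz2 was lower in knockdown cells on both days, by 6.28-fold and 4.45-fold, and lower over time, by 3.64-fold in control and 2.58-fold in knockdown cells. At day 0 Ptprc was 2.40-fold and Krt18 2.25-fold higher in knockdown cells, and over time Ptprc was 2.82-fold higher in control cells. Lyz2, Ptprc and Krt18 are dim genes. In other settings the lowest day 0 log2 ratios of Ptprc and Krt18 were -0.06 and -0.30, the control time ratio of Ptprc was 0.14, and Lyz2 was under 2-fold at day 2 (-0.58) and over time in knockdown cells (-0.15). Among the preadipocyte markers, Thy1 at day 0 was 2.97-fold lower in knockdown cells, Pdgfrb 2.07-fold lower at day 2, and Ly6a 2.51-fold higher over time in knockdown cells. Pdgfrb was lower over time in both kinds of cell, by 2.81-fold in control and 3.94-fold in knockdown cells. Their part in the ratios of the enzyme genes was not tested.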

How the data were processed

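Total RNA of 4 cultures of 3T3-L1 cells was hybridised with Cy3 to Agilent arrays of design 028005, 1 array per group. Per the file headers, Feature Extraction 10.7.3.1 subtracted a spatial background and, on every array but knockdown day 0, applied a multiplicative detrending. The deposited intensity values are these processed signals, linear and without any normalisation across arrays. Array positions refer to mm9, per the file headers, and no coordinate of them is printed.

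Control spots and spots marked non-uniform or population outliers were left out. A spot's level is its log2 processed signal minus that of the array's 75th percentile, averaged over the spots of a probe. The 27650 probes that matched a gene by transcript accession were named from RefSeq (GRCm38.p6, names and promoters only), and the probe with the highest mean level stands for each of the 5552 genes with more than 1. A gene was compared where well above background on at least 1 array of the pair; where so on only 1, the ratio is a bound. A called ratio is 2-fold or more. With 1 array per group no test was run. The difference of the ratios was limited to the 15462 genes that every array measured well above background.

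The spot SD is the median, over the repeat probes within 1 log2 unit of the gene, of the SD of a log2 ratio over 10 spots. The alternatives were normexp (offset 50), quantile, cyclic loess (3 iterations), 75th percentile over detected probes, median scaling, the median of a gene's probes, outlier spots kept, no detrending, a filter on genes well above background on all arrays, and a 1.5-fold size. Tools were R 4.3.3 with limma 3.58.1, and Python 3.11.15 with numpy 2.4.6, pandas 2.3.3 and matplotlib 3.10.9.

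Genes named in the text are the 10 members with their probes, up to 3 genes per other list, comparison and direction past 2-fold and well above background on both arrays, Pparg, Cebpa, Srebf1, Mlxipl, Lamp2 and Me1, and the 5 genes nearest to the members' median profile. The members and lists were chosen with earlier results of these data known. Not every gene the rule takes is reported here. Csf1r, Kdr, Lpl, Cfd and Adipoq fall outside that rule and were named after their values were seen.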

Additional observations from a re-analysis of the deposited data

Results flagged for a closer look

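Fasn and Dgat1 had knockdown log2 ratios of opposite sign at day 0 and day 2, each beyond 2 spot SD. The ratio of Fasn was 0.20 at day 0 and -0.66 at day 2, a difference of -0.87. That of Dgat1 was -0.12 and 0.70, a difference of 0.82. The differences were not tested, since each group is 1 array, and the day 0 ratios use the control day 0 array of the other slide. The day 0 ratio of Fasn was below 0 after quantile normalization, cyclic loess and median scaling, so its opposite sign did not hold there, whereas that of Dgat1 held in all 9 other settings. For both genes, the median over probes and the filter on genes well above background on all arrays could not change the ratios. The difference of Fasn ran from -0.94 to -0.02 over the settings and that of Dgat1 from 0.74 to 1.67.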

How the results depend on the processing

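Of the 40 log2 ratios of the enzyme genes in the 4 comparisons, 24 kept 1 direction under the 9 other settings, and so did all 8 past 2-fold, of which 3 stayed past it (Scd1, Dgat1 and Lpin1 over time in knockdown cells). Not every setting could change a ratio. The filter on genes well above background on all arrays returns the main ratio for every member. The median over probes does so for Fasn, Scd1, Scd2, Dgat1, Dgat2 and Gpam, which have 1 probe each. The share of all genes past the 1.5-fold size was not counted, so the members' counts at that size have no background beside them. For the knockdown at day 0, members 2-fold higher numbered 0 under normexp, quantile, cyclic loess and median scaling and 3 at the 1.5-fold size. Members lower numbered 1 under cyclic loess (Gpam) and 1 under median scaling (Agpat2). The members' median there was 0.31 with normexp, 0.14 with quantile, 0.28 with the percentile over detected probes, -0.57 with median scaling and 0.32 without detrending. For the knockdown at day 2, members higher numbered 0 with the median over probes and 3 at 1.5-fold, and 1 was lower at 1.5-fold. The median was 0.13 with quantile, 0.11 with cyclic loess and 0.22 with median scaling. Over time in control cells, members higher numbered 0 with median scaling and 5 at 1.5-fold. There, 1 was lower with cyclic loess (Gpam), and 1 with median scaling and at 1.5-fold (Agpat2). The median was 0.51 with quantile, 0.41 with cyclic loess, -0.20 with median scaling and 0.66 without detrending. Over time in knockdown cells 1 was lower at 1.5-fold, and the median was 0.24 with normexp, 0.18 with quantile, 0.12 with cyclic loess, 0.17 with the median over probes and 0.26 without detrending. The difference of the knockdown ratios passed the size for 1 member with cyclic loess (Gpam), for 2 with median scaling (Dgat1 and Lpin1) and for 2 at 1.5-fold (Fasn and Dgat1). The cause of these shifts was not tested.

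Over all genes, the 3555 higher in knockdown cells at day 0 became 1387, 1103, 994 and 1003 with normexp, quantile, cyclic loess and median scaling, and the 803 lower became 1295, 1726 and 4558 with the last 3. The 767 lower at day 2 became 453 with normexp. Over time in control cells 3761 higher became 1908, 1269, 1153 and 1121 in the same order, and 1508 lower became 2623 with cyclic loess and 4828 with median scaling. In the difference, 441 higher became 876, 1215 and 5303 with quantile, cyclic loess and median scaling, and 2635 lower became 1243, 1084, 921 and 720 with normexp and these. No paired analysis was possible because each group is 1 array. The dim signals of Gpam, of the second Lpin1 probe and of the dimmer Acaca probes limit what these arrays resolve.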
